A study of Mus musculus with 4 samples.

Results

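Class 3 semaphorins are secreted guidance proteins, and 10 genes of this system were followed through the injured mouse brain, out of 33696 gene features in the deposited matrices. The ligands were 5 (Sema3a, ENSMUSG00000028883; Sema3c, ENSMUSG00000028780; Sema3d, ENSMUSG00000040254; Sema3e, ENSMUSG00000063531; Sema3f, ENSMUSG00000034684). The receptors were 2 neuropilins (Nrp1, ENSMUSG00000025810; Nrp2, ENSMUSG00000025969) and 3 plexins (Plxna2, ENSMUSG00000026640; Plxna4, ENSMUSG00000029765; Plxnd1, ENSMUSG00000030123). The genes were taken by name for their place in the pathway, and each symbol matched 1 feature. Their UMIs were summed by cell class, fibroblast state, region and library. Most class 3 semaphorins bind a neuropilin, which has a short intracellular tail, and signal through a plexin of class A that is held in the same receptor complex. Sema3e is the exception, since it binds plexin D1 directly, a receptor best known in endothelium. The ligands repel or attract growing axons, and they also steer vessels and migrating cells. Meningeal fibroblasts in scars of the central nervous system are a known source of Sema3a.

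Single nuclei were profiled from the brains of mice 21 days after a photothrombotic injury, in which light activates a circulating dye and closes vessels of a small cortical area. The library labelled control came from mice labelled WT. The library labelled cKO came from mice with Col1a2(creER), an inducible Cre recombinase driven in fibroblasts by a collagen promoter, and with Cxcl12(flox), a floxed chemokine gene. The labels name no other allele. In each genotype 1 male and 1 female mouse were pooled into 1 gene expression library with its tag library, which gives 4 samples in all and no replicate. Lesion and surrounding parenchyma were tagged apart and mixed by the authors, so there was 1 matrix of counts for each region of each library. Every difference below is therefore between these libraries or within them, and no p-value was computed. Levels are given as CPM, the gene's summed UMIs in a class scaled to the class total of 1000000. The brackets hold an exact 95% Poisson interval, which covers counting error only. Where a pair of values is given without a label, the first is from the library labelled control and the second from the library labelled cKO. Levels were not compared between genes, because the assay reads near the 3′ end and no length was used.

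The lesion matrices held 8608 and 8421 barcodes with 34769874 and 31995274 UMIs, and the parenchyma matrices held 3244 and 3216 barcodes with 62701074 and 62749811 UMIs. After filtering, the median nucleus had 2962 and 2975 UMIs in the lesion and 15915 and 16648 in the parenchyma. The lesion matrix of the library labelled control shared 22 barcodes with the lesion matrix labelled cKO and 15 with the parenchyma matrix labelled cKO, and its parenchyma matrix shared 9 and 1 with these. The targeted gene, Cxcl12, went against the labels in lesional fibroblast-like nuclei, with 106 (101 to 111) and 216 CPM (209 to 224). Which exons the floxed allele loses is not stated in the sources used here, so counts near the 3′ end check nothing. The libraries are named below by their labels alone. Clusters were named from marker lists and are written as class-like. Clusters in which more than 20% of nuclei carried UMIs of both sexes were set apart as mixed, and they held 448 and 438 lesional nuclei and 9 and 7 parenchymal nuclei. The fibroblast-like class was the largest of the lesion, with 4162 and 4100 nuclei, followed by the myeloid-like class with 1515 and 1971. All 8 fibroblast markers had UMIs in it, with a summed level of 4551 and 4119.6 CPM.

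The 5 ligands had different sources in the lesion. Among the classes ranked, Sema3a was highest in fibroblast-like nuclei, Sema3c in astrocyte-like and endothelial-like nuclei, Sema3d in oligodendrocyte precursor-like nuclei, Sema3e in neurons, and Sema3f, the sparsest, in endothelial-like nuclei. The order of levels was taken over 10 lesional classes, which leave out the mural-like class and the striatal projection neuron-like class. The latter had 8 and 47 lesional nuclei with Sema3a at 73.7 (31.8 to 145) and 502 CPM (442 to 568), so in the library labelled cKO it was above fibroblast-like nuclei.

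Sema3a, which encodes the growth cone collapsing ligand of the Nrp1 and plexin A complex, was at 454 (443 to 465) and 429 CPM (419 to 439.9) in lesional fibroblast-like nuclei. The next class in both libraries was bone-like, at 186 (159 to 217) and 267 CPM (202 to 347). Most bone-like nuclei, 351 of 420, lay in a cluster in which 3 of 6 bone markers were raised. Its mean log2 fold was 4.56 over the bone markers and 3.81 over the fibroblast markers. How far fibroblast RNA enters the bone-like levels was not tested. The log2 ratio of the fibroblast-like over the bone-like class was 1.28 (1.06 to 1.52) and 0.67 (0.31 to 1.09). In the male mouse alone of the library labelled cKO the log2 distance to the highest other class was 0.35, and in its female mouse 1.48. T cell-like nuclei came next with 138 (94.9 to 194) and 141 CPM (92.1 to 207). Myeloid-like nuclei were low in it, at 11.8 (8.5 to 15.9) and 17.1 CPM (13.7 to 20.9). Fibroblast markers were also read in T cell-like nuclei, at a summed 1361 CPM (8 of 8 markers with UMIs) and 770.2 CPM (7 of 8 markers with UMIs), with Lum at 0, and their part in this value was not tested. Fibroblast-like nuclei carried 80.6% and 81.6% of all lesional Sema3a UMIs. A Sema3a UMI was seen in 50.9% and 51.9% of fibroblast-like nuclei, whose median depth was 3077.5 and 3113.5 UMIs. In myeloid-like nuclei, with medians of 2036 and 2260 UMIs, the share was 2.57% and 4.16%. Thinned to 1000 UMIs per nucleus, which left out 107 and 96 fibroblast-like and 94 and 110 myeloid-like nuclei, the shares were 28.3% and 27.4% against 1.13% and 1.61%. The classes thus stayed apart at equal depth.

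Sema3c, a ligand known for its part in outflow tract and vessel development, was at 194 (176 to 212) and 233 CPM (215 to 253) in lesional astrocyte-like nuclei and at 191 (142 to 252) and 372 CPM (284 to 478) in endothelial-like nuclei. Astrocyte-like and endothelial-like nuclei did not differ beyond counting error in the library labelled control, at a log2 ratio of 0.0044 (-0.40 to 0.46). Endothelial-like nuclei were above astrocyte-like nuclei in the library labelled cKO, at 0.68 (0.27 to 1.06). The latter did not hold in the male mouse, where the log2 distance was -0.053. Fibroblast-like nuclei followed at 99.3 (94.2 to 105) and 116 CPM (110.2 to 121), near inhibitory neuron-like nuclei at 99.5 (82.6 to 119) and 82.5 CPM (63.1 to 106). Excitatory neuron-like nuclei were lowest at 11.3 (8.86 to 14.1) and 17.3 CPM (12.8 to 22.8). Fibroblast-like nuclei, the most numerous, held 59.2% and 60.035% of lesional Sema3c UMIs, against 18.3% and 20.6% for astrocyte-like nuclei.

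Sema3d, a ligand that acts on neural crest and endothelial cells, was at 729 (645 to 821) and 477 CPM (418 to 542) in the 76 and 101 oligodendrocyte precursor-like nuclei. Astrocyte-like nuclei were next at 239 (219 to 259.8) and 169.8 CPM (154 to 187), a log2 distance of 1.61 (1.40 to 1.82) and 1.49 (1.26 to 1.72). Fibroblast-like nuclei followed at 133 (127 to 139) and 115 CPM (110.0 to 121), so these 3 classes had the same order in both libraries. The few precursor-like nuclei of the parenchyma, 19 and 13, were also high, at 421 (307 to 563) and 369.9 CPM (244 to 538). Fibroblast markers summed to 804 CPM (8 of 8 markers with UMIs) and 815 CPM (8 of 8 markers with UMIs) in the lesional precursor-like nuclei, against 4551 and 4119.6 CPM in fibroblast-like nuclei, and their part in the Sema3d value was not tested. Fibroblast-like nuclei again held most of the lesional UMIs, 61.6% and 64.4%.

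Sema3e, the plexin D1 ligand, was highest in neurons, at 110.2 (92.3 to 130.5) and 85.2 CPM (65.4 to 109) in inhibitory neuron-like and 96.3 (89 to 104) and 102 CPM (90.1 to 114) in excitatory neuron-like nuclei of the lesion. The order of these classes was within counting error in both libraries. In the library labelled control it differed between the mice, with log2 ratios of inhibitory neuron-like nuclei over the highest other class of -0.83 in the female and 1.46 in the male mouse. Astrocyte-like nuclei were at 39.1 and 45.7 CPM and fibroblast-like nuclei at 25.1 and 26.4 CPM. Sema3f, whose product prefers Nrp2, had 6 UMIs in the endothelial-like nuclei of each library, which gave 22.5 (8.26 to 49) and 36.6 CPM (13.4 to 79.6). The other ranked classes were at or below 5.42 CPM, with 51 and 54 UMIs in fibroblast-like nuclei (3.56 and 3.65 CPM). In the male mouse labelled cKO the endothelial-like class was not the highest for Sema3f (log2 -2.28), and the ranking of this gene rests on few UMIs.

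**Figure D1:**
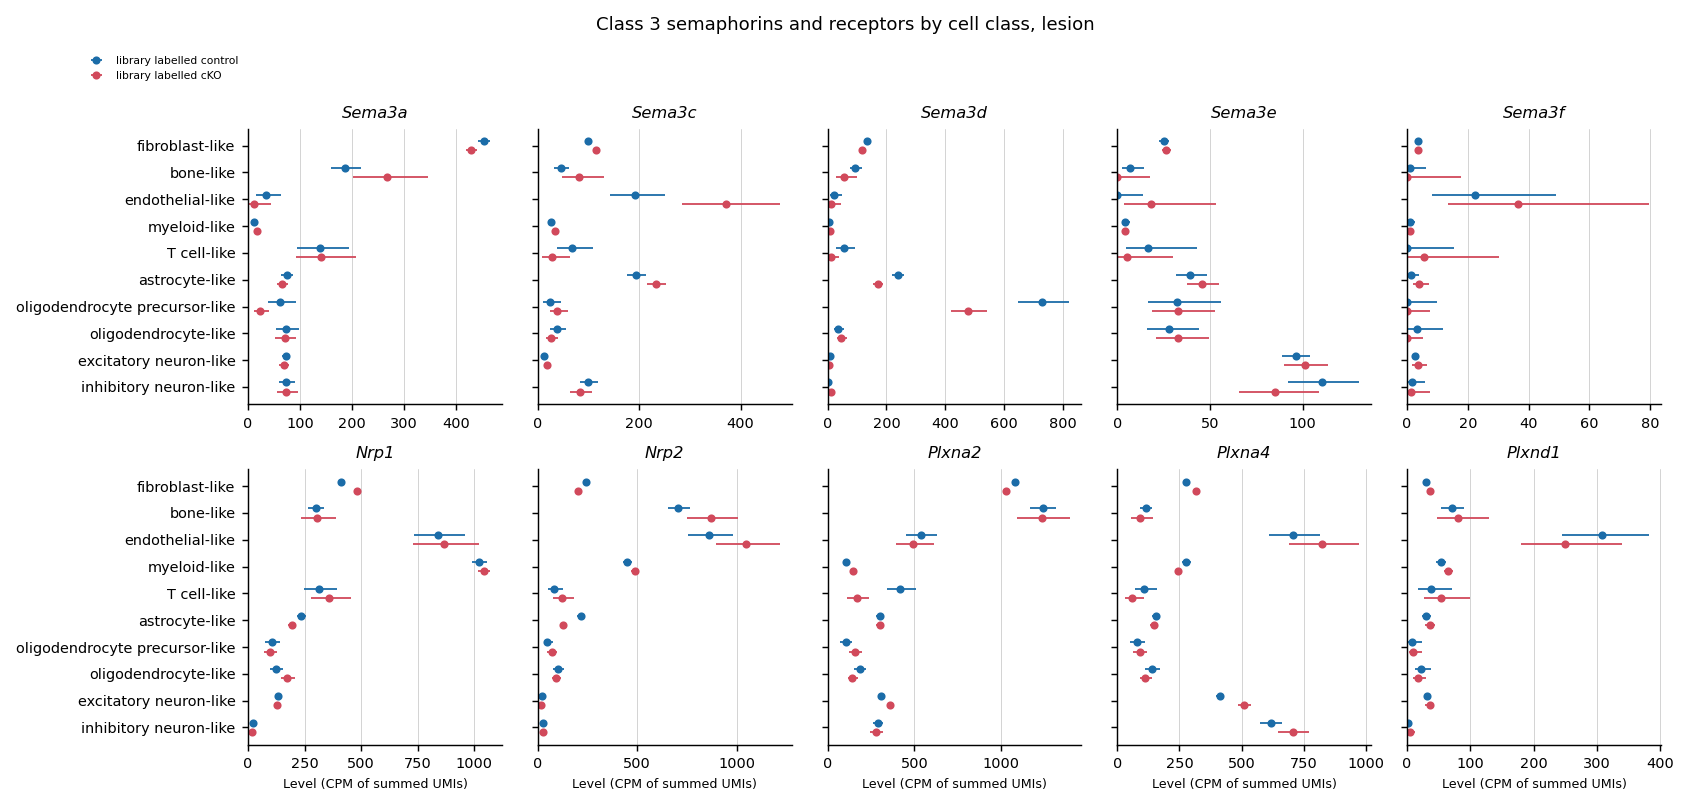
Level of each gene (CPM of summed UMIs, linear axis, 1 panel per gene) in 10 lesional classes, blue for control and red for cKO labels, with bars for exact 95% Poisson intervals. Sema3a stands out in fibroblast-like nuclei at 454 and 429 CPM, Sema3d in oligodendrocyte precursor-like nuclei, Nrp1 in myeloid-like and endothelial-like nuclei and Plxnd1 in endothelial-like nuclei.

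By level among the ranked classes, Nrp1 was highest in myeloid-like and endothelial-like nuclei and Nrp2 in endothelial-like and bone-like nuclei. The plexins were highest in bone-like and fibroblast-like (Plxna2) or endothelial-like nuclei (Plxna4, Plxnd1). By number of UMIs, fibroblast-like nuclei held the largest share of every receptor in the lesion, with 45.7% and 46.1% for Nrp1, 47.1% and 42.4% for Nrp2, 38.3% and 49.3% for Plxna4 and 35.7% and 40.3% for Plxnd1. Over all genes the class held 14335980 of 33470866 and 14796200 of 30864931 lesional UMIs. The shares listed here were near or below that part of all UMIs. Nrp1, the coreceptor that binds Sema3a and VEGF-A, was at 1022 (989 to 1056) and 1041 CPM (1014 to 1069) in lesional myeloid-like nuclei. Endothelial-like nuclei followed at 840.1 (734 to 958) and 865 CPM (729 to 1020.0), a log2 distance of 0.28 (0.088 to 0.48) and 0.26 (0.027 to 0.52). Then came fibroblast-like nuclei at 411 (400.4 to 421) and 481 CPM (469.6 to 492) and T cell-like nuclei at 313 and 358 CPM. Inhibitory neuron-like nuclei were lowest, at 19.7 and 18.9 CPM. Nrp2, the coreceptor preferred by Sema3f, was at 863 (755 to 982) and 1048 CPM (897 to 1217) in endothelial-like and 707 (653 to 765) and 873 CPM (751 to 1009) in bone-like nuclei. The distance between them, log2 0.29 (0.062 to 0.51) and 0.26 (-0.045 to 0.57), changed sign in the male mouse labelled control and in the female mouse labelled cKO, at -0.23 and -0.14. With class clusters at resolution 0.5 it was -0.23 and -0.29. Myeloid-like nuclei were at 450.2 (428 to 473) and 488 CPM (469 to 507), and fibroblast-like nuclei at 242 (234 to 249.9) and 203 CPM (195 to 209.9). Excitatory neuron-like nuclei were lowest, at 19.7 and 14.8 CPM.

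Plxna2, a plexin that pairs with neuropilins and also binds class 6 semaphorins, was highest in bone-like nuclei, at 1239.7 (1168 to 1315) and 1235 CPM (1089 to 1395), and in fibroblast-like nuclei, at 1078 (1061 to 1095) and 1027 CPM (1011 to 1044). The log2 distance between these classes was small, 0.20 (0.11 to 0.29) and 0.27 (0.083 to 0.44), and it was -0.66 in the female mouse labelled cKO. Fibroblast-like nuclei held 70.6% and 75.5% of lesional Plxna2 UMIs, while myeloid-like nuclei were at 106 and 147 CPM. Plxna4, the plexin through which Sema3a repels many axons, was at 705 (608 to 813) and 823 CPM (689.8 to 974) in endothelial-like and 617 (573 to 662) and 706 CPM (646 to 769) in inhibitory neuron-like nuclei, which did not differ beyond counting error in either library. Excitatory neuron-like nuclei were below them, at 411 (396 to 427) and 511 CPM (485 to 538). Fibroblast-like nuclei were at 275 and 318 CPM. Plxnd1, the receptor for Sema3e, was at 308 (245 to 382) and 249.9 CPM (179 to 339) in endothelial-like nuclei. Of the ranked classes bone-like nuclei came next, at a log2 distance of 2.12 (1.63 to 2.62) and 1.60 (0.78 to 2.53). The mural-like class, left out of the ranking, was at 165 and 305 CPM, with 13 UMIs in each library over 43 and 16 nuclei. It thus lay above bone-like nuclei in both libraries and above endothelial-like nuclei in the library labelled cKO. Myeloid-like nuclei were at 53.4 (46 to 61.5) and 65 CPM (58.4 to 72.2), and inhibitory neuron-like nuclei had 2 and 3 UMIs. Excitatory neuron-like nuclei, which were among the highest for Sema3e, also had Plxnd1, at 31.7 (27.6 to 36.3) and 35.6 CPM (29 to 43.3) with 211 and 101 UMIs.

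Fibroblast-like nuclei were not uniform, and the ligands divided their states. Clustered again without the 10 genes, lesional fibroblast-like nuclei gave a leptomeningeal-like cluster led by Sptssb and Trpm3, with 1658 and 1471 nuclei. The others were a late inner-like cluster led by Lama3 and Rbpjl with 932 and 1286, a dural or dural border-like cluster led by Prmt8 and Ccn3 with 1168 and 824. There were also a further leptomeningeal-like cluster led by Gm30613 and C6 with 386 and 482 nuclei, and a dividing-like cluster with 18 and 37. Sema3a was highest in the Sptssb and Trpm3 cluster, at 590.0 (569 to 612) and 618 CPM (595 to 640.5), and next in the dural or dural border-like cluster, at 470.0 (451 to 489.7) and 460.0 CPM (437 to 484). The late inner-like cluster had the lowest Sema3a of all 5 clusters in both libraries, at 262 (244 to 280.1) and 277 CPM (262 to 291), though its interval overlapped that of the dividing-like cluster. Sema3c ran the other way, with 229.7 (213 to 247) and 187 CPM (175 to 199) in the late inner-like cluster against 43.3 (37.7 to 49.4) and 45.9 CPM (39.975 to 52.4) in the Sptssb and Trpm3 cluster. The few dividing-like nuclei were also high in Sema3c, at 330.1 (214 to 487) and 320.2 CPM (248 to 407). Sema3d followed Sema3a in being highest in the Sptssb and Trpm3 cluster, at 217 (204 to 230.1) and 197 CPM (184 to 209.8), but was lowest in the Gm30613 and C6 cluster, at 47 (35.5 to 61.1) and 37.5 CPM (28.5 to 48.5). Sema3e was highest in the dural or dural border-like cluster, at 40.8 (35.4 to 46.9) and 42.2 CPM (35.5 to 49.9).

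Among the receptors, Nrp2 and Plxna2 shared the Sptssb and Trpm3 cluster, where Nrp2 was at 475 (457 to 495) and 441 CPM (423 to 461) and Plxna2 at 1587 (1553 to 1623) and 1515 CPM (1480.1 to 1551). Nrp2 was at 60.1 (53.4 to 67.4) and 56.1 CPM (48.3 to 64.9) in the dural or dural border-like cluster, and Plxna2 was at 712 (683 to 742) and 761 CPM (738 to 786) in the late inner-like cluster. Plxna4 had the reverse order, with 399.8 (378 to 422) and 493 CPM (474 to 513) in the late inner-like and 356 (339.6 to 373) and 367 CPM (346 to 388) in the dural or dural border-like cluster against 149 (139 to 160.5) and 152 CPM (141 to 164) in the Sptssb and Trpm3 cluster. Nrp1 was lowest in the Sptssb and Trpm3 cluster (256 and 299 CPM) and highest in the Gm30613 and C6 cluster (646 and 626 CPM), so the 2 leptomeningeal-like clusters were at opposite ends for this gene. Among the 4 larger clusters Plxnd1 ranged from 17.6 and 21.6 CPM in the dural or dural border-like cluster to 52.3 and 48.5 CPM in the late inner-like and 40.3 and 54.9 CPM in the Gm30613 and C6 cluster.

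Each named state was then set against all other lesional fibroblast-like nuclei, with both leptomeningeal-like clusters merged. A gene was counted when it was at least 1.5-fold apart in the same direction in both libraries, with 0.5 added to each sum. In the leptomeningeal-like state this held for 6 of the 10 genes, against 13.8% of the 12298 genes tested. Among the higher genes, Nrp2 had log2 ratios of 1.79 (1.68 to 1.90) and 1.94 (1.82 to 2.06). Sema3d followed at 0.98 (0.85 to 1.11) and 0.89 (0.75 to 1.04) and Plxna2 at 0.98 (0.93 to 1.02) and 0.86 (0.81 to 0.90). The 2 merged clusters did not share these differences: in the Gm30613 and C6 cluster alone, Nrp2 was at 101 and 86.6 CPM, a log2 ratio to all other fibroblast-like nuclei of -1.33 (-1.61 to -1.07) and -1.31 (-1.58 to -1.07). Its Sema3d ratio was -1.57 (-1.99 to -1.20) and -1.72 (-2.13 to -1.35) and its Plxna2 ratio 0.025 (-0.058 to 0.11) and -0.060 (-0.14 to 0.015), so the higher values of the state came from the Sptssb and Trpm3 cluster. Sema3c was lower, at -1.59 (-1.78 to -1.40) and -1.35 (-1.52 to -1.19), and so was Plxna4, at -1.32 (-1.42 to -1.21) and -1.48 (-1.59 to -1.38). The last gene counted as lower, Sema3f, was sparse, with 6 and 8 UMIs in the Sptssb and Trpm3 cluster. Sema3a was higher by less than 1.5-fold in the library labelled control, at a log2 ratio of 0.48 (0.41 to 0.55) and 0.65 (0.57 to 0.72), and was not counted. In the late inner-like state 6 of the 10 genes were counted, against 14.9% of the same genes. Sema3c was higher there, at log2 ratios of 1.88 (1.73 to 2.03) and 1.25 (1.11 to 1.39), as were Plxna4, at 0.74 (0.64 to 0.84) and 1.13 (1.04 to 1.21), and Plxnd1, at 1.11 (0.82 to 1.39) and 0.73 (0.48 to 0.99). Sema3a was lower, at -0.96 (-1.06 to -0.85) and -0.88 (-0.97 to -0.79). So were Sema3e, at -1.04 (-1.55 to -0.59) and -0.79 (-1.15 to -0.45), and Plxna2, at -0.73 (-0.79 to -0.67) and -0.62 (-0.67 to -0.56). In the dural or dural border-like state 5 of the 10 genes were counted, against 13.1%. Sema3e was higher, at 1.26 (0.96 to 1.57) and 0.94 (0.63 to 1.25). The sparse Sema3f, with 24 and 20 UMIs in the state, was also counted as higher, at 0.79 (-0.069 to 1.64) and 1.08 (0.19 to 1.91). Its interval in the library labelled control held 0. Nrp2 was lower, at -2.48 (-2.66 to -2.31) and -2.11 (-2.34 to -1.90), together with Sema3d and Plxnd1. Each state served in the background of the others, so the 3 counts are not independent. At a finer fibroblast clustering (resolution 0.5) the log2 ratios of Sema3d turned to 0.53 and 0.52 in the dural or dural border-like state and shrank to 0.037 and 0.17 in the leptomeningeal-like state. There the dural or dural border-like count was 3, the Nrp2 ratios of that state were -0.65 and -0.24, the latter under 1.5-fold, and the Sema3f ratio of the library labelled control was -0.17.

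**Figure D2:**
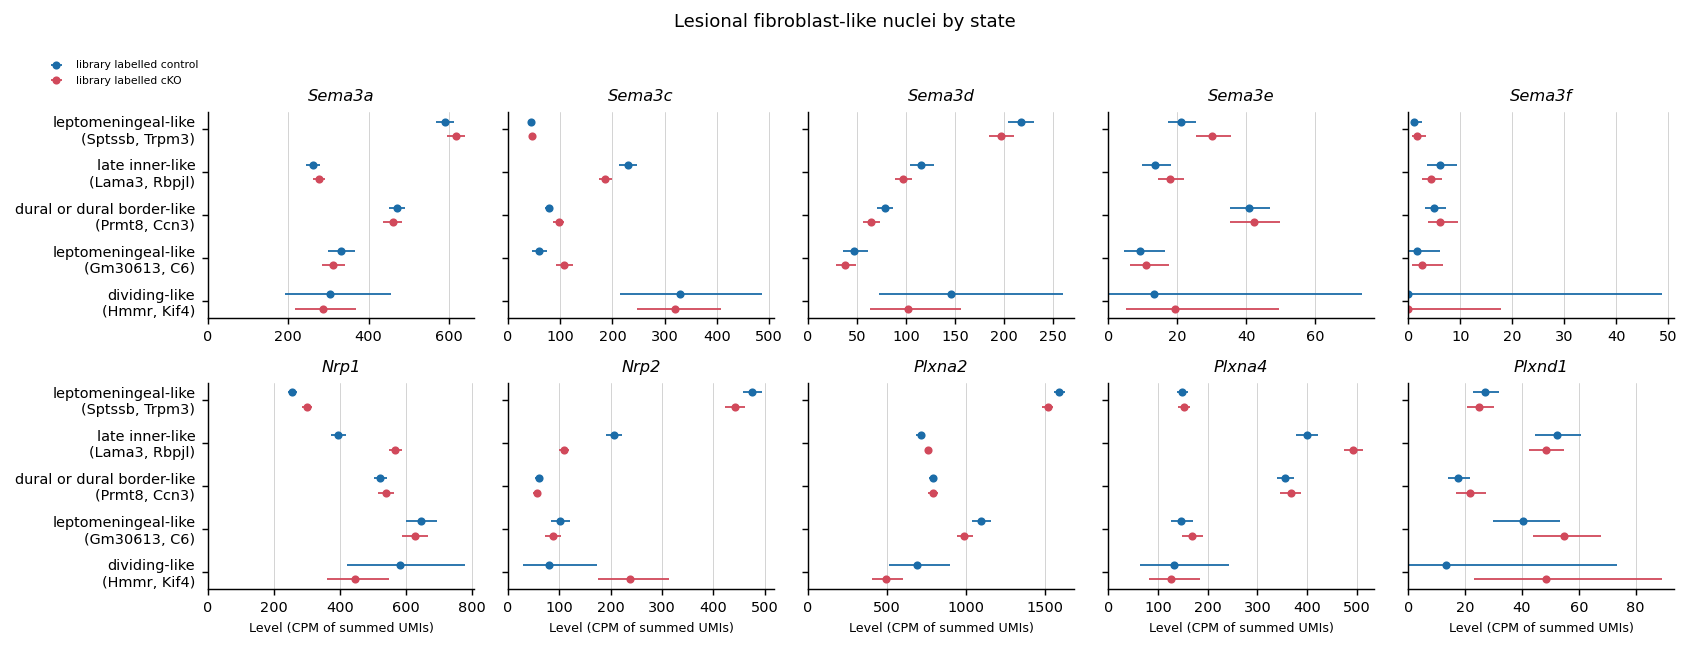
Level of each gene (CPM of summed UMIs, linear axis, 1 panel per gene) in the 5 clusters of lesional fibroblast-like nuclei, with the library labelled control in blue, that labelled cKO in red, and exact 95% Poisson intervals. Sema3a, Sema3d, Nrp2 and Plxna2 peak in the Sptssb and Trpm3 cluster, while Sema3c and Plxna4 are higher in the late inner-like cluster than there.

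Because Sema3a and Sema3d lay highest in the leptomeningeal-like Sptssb and Trpm3 cluster while Sema3c was higher in the late inner-like cluster than there, the promoters of these ligands are shown side by side. The sequences are from RefSeq (build GRCm38.p6, plus strand), 250 bases before to 50 bases after the gene start, at chr5:13396534-13396833 for Sema3a, chr5:12382916-12383215 for Sema3d and chr5:17574566-17574865 for Sema3c. Capitals mark GGGCGG, the GC box that Sp1 factors bind, or its reverse complement CCGCCC.
Sema3a: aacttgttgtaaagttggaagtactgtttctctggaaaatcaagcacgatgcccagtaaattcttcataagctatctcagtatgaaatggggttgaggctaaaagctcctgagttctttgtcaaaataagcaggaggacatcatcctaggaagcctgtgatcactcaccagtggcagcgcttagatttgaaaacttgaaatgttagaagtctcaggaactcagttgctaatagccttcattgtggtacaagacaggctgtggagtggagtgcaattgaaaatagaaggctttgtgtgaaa
Sema3d: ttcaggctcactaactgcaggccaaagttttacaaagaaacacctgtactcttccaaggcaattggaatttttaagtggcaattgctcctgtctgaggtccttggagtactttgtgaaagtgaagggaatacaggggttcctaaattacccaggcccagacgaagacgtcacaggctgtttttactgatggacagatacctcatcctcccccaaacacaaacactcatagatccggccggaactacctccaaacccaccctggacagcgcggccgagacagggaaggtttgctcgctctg
Sema3c: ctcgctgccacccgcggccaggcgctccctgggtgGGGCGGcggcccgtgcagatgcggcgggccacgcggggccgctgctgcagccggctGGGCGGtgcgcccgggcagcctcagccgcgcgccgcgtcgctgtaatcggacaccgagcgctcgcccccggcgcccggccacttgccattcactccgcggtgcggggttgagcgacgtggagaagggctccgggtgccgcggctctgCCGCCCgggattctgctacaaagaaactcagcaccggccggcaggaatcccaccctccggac

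The Sema3a window held 2 CG pairs, and 23.3% of the 32851 promoters of this length held as few or fewer. The Sema3d window held 8 CG pairs (54.2% with as few or fewer), and the Sema3c window 42 (97.4%). GGGCGG was found 3 times in the Sema3c window and in neither of the others, and it occurs in 35.7% of all promoters. The receptors Nrp2 and Plxna2, also highest in the Sptssb and Trpm3 cluster, had 5 and 2 matches and 37 and 25 CG pairs. The contrast between the 3 ligands was thus not shared by these receptors of the same cluster. None of the 3 windows held GGAATG, a motif of TEAD factors, which is in 14.7% of promoters, TATAAA, which is in 13.6%, or TGANTCA, the AP-1 motif, which is in 7.81%. Both strands were searched, no match overlapped another in the 3 windows shown, and a match or its lack describes only the letters in these windows.

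Myeloid-like nuclei carried the receptors and little Sema3a or Sema3d, and the receptors differed between myeloid states. Nrp1 was highest in border-associated macrophage-like nuclei (led by Cd163, Cbr2 and F13a1), at 1583 (1448 to 1727) and 1442 CPM (1291 to 1606). Gpnmb-high macrophage-like nuclei followed at 1042 (986 to 1101) and 1116 CPM (1073 to 1159) and homeostatic microglia-like nuclei at 962 (918 to 1008) and 961 CPM (922 to 1000.5). Monocyte or dendritic-like nuclei were far lower, at 120.0 (57.5 to 221) and 267 CPM (190.5 to 363), over 42 and 68 nuclei. Nrp2 stood at 454 (424 to 486) and 469.5 CPM (443 to 498) in homeostatic microglia-like and at 473 (435 to 514) and 526 CPM (497 to 556) in Gpnmb-high macrophage-like nuclei, with intervals that overlapped in both libraries. The plexins split these states: Plxna4 was at 387 (359 to 417) and 378 CPM (353 to 403) in homeostatic microglia-like against 140.4 (120.1 to 163) and 127 CPM (113 to 143) in Gpnmb-high macrophage-like nuclei. Plxnd1 had the opposite order, at 25.8 (19 to 34.2) and 24.4 CPM (18.6 to 31.5) against 91.7 (75.4 to 110.4) and 110.4 CPM (97.4 to 125). In the 4 named myeloid states Sema3a was at or below 19.998 CPM and Sema3d at or below 9.12 CPM, in both libraries. A further cluster with UMIs of both sexes in more than 20% of its nuclei was left out of these states, and held 116 and 157 nuclei, while an unnamed cluster led by the dividing genes Nusap1 and Aspm held 21 and 50.

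Lesion and parenchyma were compared within classes, in each library apart, to ask which ligands and receptors differ at the injury. Parenchymal nuclei of these classes were few. A gene was tested when its UMIs over both regions reached 50 in each library, so it could pass through 1 region alone. In astrocyte-like nuclei 7 of the 9 genes with enough UMIs were at least 1.5-fold higher in the lesion in both libraries, against 22.4% of 6960 genes tested. The count of lower genes was 0 of 9, against 9.01%. Most UMIs of the class were lesional, with 2273537 and 2514263 in the lesion against 183630 and 231452 in the parenchyma. Genes that were high in the lesion thus reached the minimum more easily, and these counts alone do not show a rise of the genes. The 535 and 524 lesional nuclei lay mostly in a cluster with A2m and Gfap among its leading genes, and the 37 and 45 parenchymal nuclei mostly in a cluster led by Slc7a10 and Grin2c, so the comparison is largely between these clusters. Their median depths were 3638 and 4007.5 UMIs in the lesion and 4902 and 5048 in the parenchyma. Sema3c was at 194 (176 to 212) and 233 CPM (215 to 253) in the lesion against 16.3 (3.37 to 47.7) and 21.6 CPM (7.01 to 50.4) in the parenchyma. This gave log2 ratios of 3.35 (2.01 to 5.85) and 3.30 (2.20 to 5.06). Sema3d was at 239 (219 to 259.8) and 169.8 CPM (154 to 187) against 27.2 (8.84 to 63.5) and 25.9 CPM (9.51 to 56.4), a log2 ratio of 2.997 (1.90 to 4.76) and 2.60 (1.58 to 4.17). Sema3a, with only 1 and 3 UMIs in parenchymal astrocyte-like nuclei, had log2 ratios of 3.18 (1.26 to 9.07) and 2.13 (0.78 to 4.64). For Sema3c and Sema3d the lesional and parenchymal intervals did not overlap in either library. Among the receptors Plxna2 stood at 300.4 (278 to 324) and 299.9 CPM (279 to 322) against 59.9 (29.9 to 107) and 77.8 CPM (46.1 to 123). Nrp2 was at 218 and 125 CPM against 49 and 60.5 CPM, and Nrp1 at 234 and 193 CPM against 114 and 90.7 CPM. Plxnd1, the seventh gene counted, was listed at 0 and 1 UMIs in parenchymal nuclei. Fibroblast markers moved with these genes, at a summed 942 CPM (8 of 8 markers with UMIs) and 372 CPM (8 of 8 markers with UMIs) in lesional astrocyte-like nuclei. In parenchymal ones they summed to 169 CPM (6 of 8 markers with UMIs) and 112 CPM (5 of 8 markers with UMIs), with Pdgfra and Dcn at 0 in the former and Pdgfra, Lum and Col6a3 at 0 in the latter. In lesional fibroblast-like nuclei themselves the list summed to 4551 and 4119.6 CPM. Lesional fibroblast-like nuclei had Sema3c at 99.3 and 116 CPM and Sema3d at 133 and 115 CPM, and the part of fibroblast RNA in the astrocyte-like values was not tested. With male nuclei alone the count of astrocyte-like genes was 3.

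Myeloid-like nuclei of the lesion had more neuropilin and less Plxna4 than those of the parenchyma, over 1515 and 1971 against 32 and 46 nuclei. Of the parenchymal nuclei, 24 and 37 lay in a cluster with Siglech among its leading genes, which held 702 and 792 lesional nuclei. The mix of clusters thus differed between the regions, and its part in the values below was not tested. Nrp1 was at 1022 (989 to 1056) and 1041 CPM (1014 to 1069) against 257 (161 to 389) and 385 CPM (272 to 528), a log2 ratio of 1.96 (1.39 to 2.67) and 1.42 (0.98 to 1.94). Nrp2 was at 450.2 (428 to 473) and 488 CPM (469 to 507) against 93.4 (40.3 to 184) and 91.1 CPM (41.7 to 173), a log2 ratio of 2.18 (1.29 to 3.48) and 2.34 (1.49 to 3.55). With Plxnd1, 3 of 7 genes were higher in both libraries, against 13.7% of 8408 genes. Plxna4 was lower, at 277 (260.2 to 295) and 245 CPM (232 to 259) against 584 (433 to 769.6) and 455 CPM (332 to 609), a log2 ratio of -1.09 (-1.48 to -0.63) and -0.91 (-1.32 to -0.43). The count of lower genes was 1 of 7, against 16% of genes. Most UMIs of this class were lesional too, so these counts carry the same limit. Plxnd1 had 190 and 347 UMIs in the lesion against 1 and 2 in the parenchyma. Excitatory neuron markers summed to 666 CPM (4 of 8 markers with UMIs) and 263 CPM (6 of 8 markers with UMIs) in parenchymal myeloid-like nuclei, with Slc17a6, Neurod6, Tbr1 and Nptx1 at 0 in the former and Slc17a6 and Nptx1 in the latter. In lesional ones they summed to 112 and 116 CPM, all 8 with UMIs, and their part in the Plxna4 value was not tested. Homeostatic microglia-like nuclei, all from the lesion here, had Plxna4 at 387 and 378 CPM. Male nuclei alone gave 2 genes apart in place of 4.

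Endothelial-like and fibroblast-like nuclei of the parenchyma were few, and their values are given with no count over genes. Sema3c was higher in the 8 and 13 parenchymal endothelial-like nuclei, at 965 (528 to 1619.9) and 1378 CPM (965 to 1907), than in the 105 and 53 lesional ones, at 191 (142 to 252) and 372 CPM (284 to 478). The intervals did not overlap in either library. Nrp1 (840.1 and 865 CPM against 276 and 229.6 CPM), Nrp2 (863 and 1048 CPM against 207 and 229.6 CPM) and Plxna4 (705 and 823 CPM against 69 and 153 CPM) were higher in the lesion. The parenchymal values rest on 4 and 6 UMIs for Nrp1, 3 and 6 for Nrp2 and 1 and 4 for Plxna4. Lesional endothelial-like nuclei were made up of a subcluster with Plvap among its leading genes, which had 62 and 34 nuclei and no parenchymal nucleus, and of a subcluster with Cldn5 among them, which held all parenchymal ones. Within the lesion Sema3c was at 119 (68.3 to 194) and 321 CPM (217 to 459) in the Plvap subcluster and 264 (184 to 367) and 438 CPM (298 to 622) in the Cldn5 subcluster. In the Cldn5 subcluster alone Sema3c was also lower in the lesion than in the parenchyma. Its lesional Nrp1 was at 550 (431 to 692) and 509 CPM (357 to 705). The parenchymal Nrp1 intervals, 75.2 to 706 and 84.3 to 499.7 CPM, overlapped these in both libraries. In the same subcluster the Nrp2 intervals of the regions did not overlap in either library, and those of Plxna4 overlapped only in the library labelled cKO.

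The 51 and 50 fibroblast-like nuclei from the parenchyma had more Sema3d and Sema3a than lesional ones and less Plxna2 and Nrp1. Their Sema3d was at 603 (506 to 714) and 436 CPM (352 to 534), a log2 ratio of lesion over parenchyma of -2.19 (-2.43 to -1.92) and -1.93 (-2.22 to -1.60). Their Sema3a was at 635 (534 to 748) and 605 CPM (505 to 719), a log2 ratio of -0.49 (-0.72 to -0.23) and -0.50 (-0.75 to -0.23), which is below 1.5-fold. Plxna2 was at 438 (356 to 534) and 544 CPM (449 to 652), a log2 ratio of 1.29 (1.01 to 1.60) and 0.91 (0.65 to 1.19), and Nrp1 at 219 (162 to 289) and 239 CPM (178 to 314), a log2 ratio of 0.89 (0.50 to 1.34) and 0.99 (0.61 to 1.43). Most parenchymal fibroblast-like nuclei lay in a cluster led by Vsx1 and Slco4a1 (29 and 28 nuclei) and in a cluster led by Ranbp3l and Slc6a20a (15 and 11). The fibroblast markers summed to 1412 and 1392 CPM there, all 8 with UMIs.

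**Figure D3:**
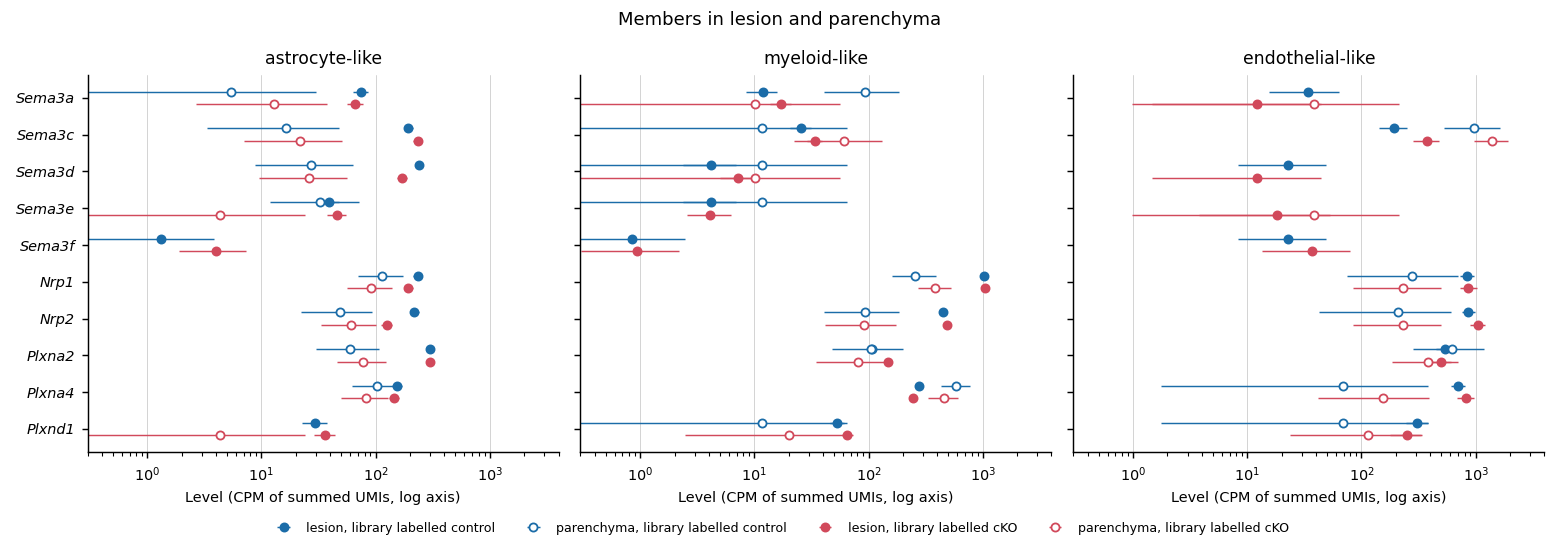
Level of each gene (CPM of summed UMIs, log axis) in astrocyte-like, myeloid-like and endothelial-like nuclei, filled points for lesion and open points for parenchyma, blue for control and red for cKO labels, with exact 95% Poisson intervals and levels of 0 not drawn. Sema3c, Sema3d and Plxna2 lie to the right in lesional astrocyte-like nuclei, Nrp1 and Nrp2 in lesional myeloid-like nuclei, and Sema3c lies to the left in lesional endothelial-like nuclei.

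Neurons expressed ligands and receptors by type, as read over both regions after a second clustering without the 10 genes. Sema3a was at 148 (130.042 to 168) and 159 CPM (141 to 178) in an Lhx6 interneuron-like cluster led by Sst, and at 127 (110.1 to 146) and 242 CPM (221 to 264) in a striatal projection neuron-like cluster led by Adora2a. The layer 5 excitatory-like cluster led by Erg had little of it, at 20.4 (15.5 to 26.4) and 16.3 CPM (11 to 23.3). Sema3c among neurons was concentrated in an Adarb2 interneuron-like cluster whose leading genes included Ndnf, at 319 (288 to 354) and 253 CPM (225 to 284), with the Vip-led cluster at 58.4 (36.2 to 89.3) and 154 CPM (117 to 199.6). Sema3e separated deep from upper layers: it was at 214 (185 to 246) and 268 CPM (229 to 313) in a layer 5 excitatory-like cluster led by Hmga2 and at 155 (138 to 172) and 144 CPM (126 to 163) in a layer 6 excitatory-like cluster led by Cplx3 and Ccn2. The 4 upper layer excitatory-like clusters were at or below 15.3 CPM. Striatal projection neuron-like and Adarb2 interneuron-like clusters also carried Sema3e, at 242 and 157 CPM in the cluster led by B020031H02Rik, Npffr2 and Drd3 and at 196 and 179.9 CPM in the cluster with Ndnf.

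The receptors marked other neuron types. Nrp1 was highest in a layer 6 excitatory-like cluster with Krt80 among its leading genes, at 403 (387 to 419.6) and 374 CPM (358 to 391), and near 0 in an Lhx6 interneuron-like cluster with Pvalb among its leading genes, at 6.65 and 4.02 CPM. That interneuron cluster had the highest Plxna4 of the named neuron clusters, at 999 (955 to 1044) and 975 CPM (932 to 1019.7). Nrp2 was at 176 (158 to 194) and 156 CPM (137 to 177) in the Cplx3 and Ccn2 cluster of layer 6 and at 155 (142 to 168) and 191 CPM (176 to 206) in an unnamed neuronal cluster led by Ndst4. It was at 135 (106 to 169) and 108 CPM (89.3 to 129) in an Lhx6 interneuron-like cluster led by Sfta3-ps. Few nuclei of these clusters were lesional, 10 and 1 in the first, 5 and 0 in the second and 2 and 4 in the last. The layer 6 excitatory-like clusters thus differed from each other, with Nrp1 high and Nrp2 at 18.7 and 25 CPM in the larger and Nrp1 at 135 and 186 CPM with high Nrp2 in the smaller.

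**Figure D4:**
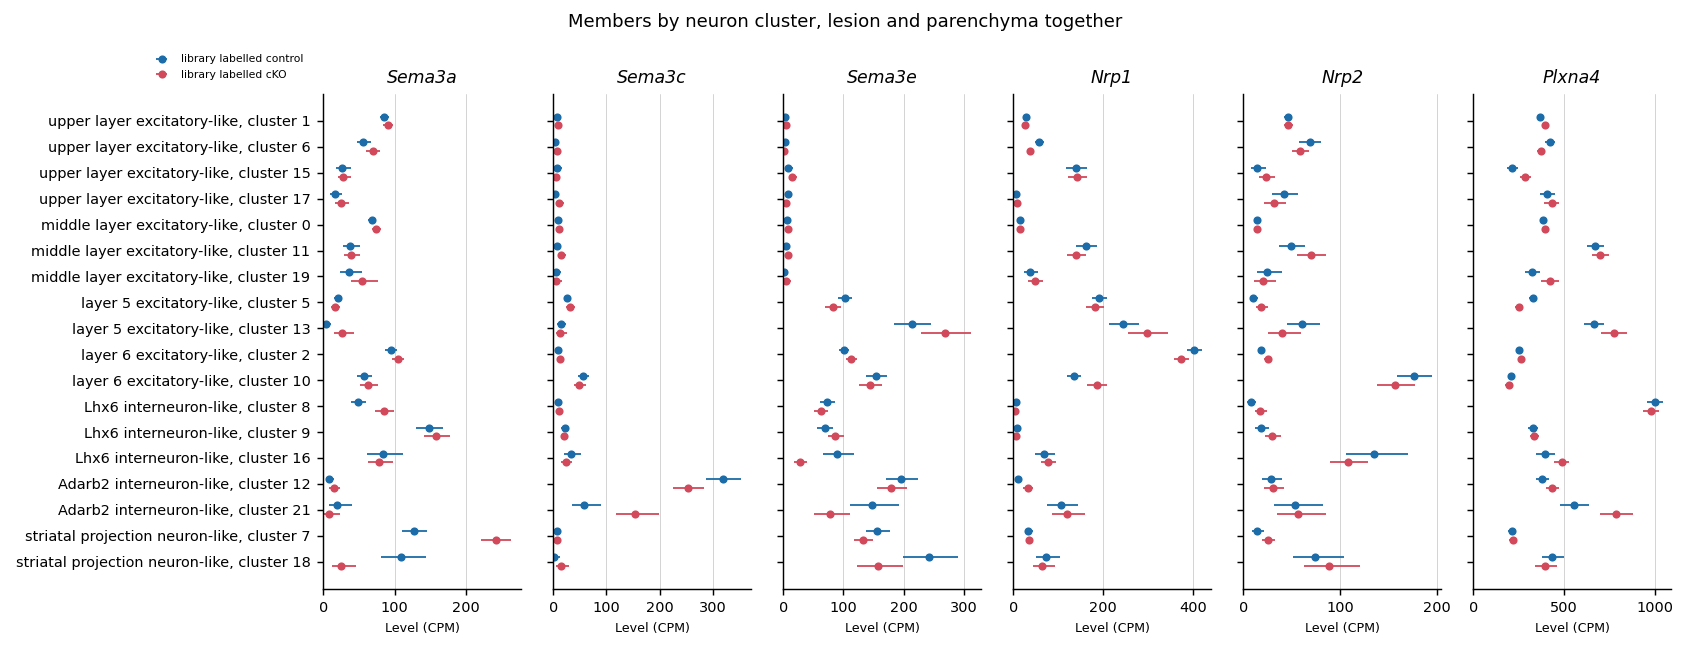
Level (CPM of summed UMIs, linear axis, lesion and parenchyma together) of Sema3a, Sema3c, Sema3e, Nrp1, Nrp2 and Plxna4 in the named neuron clusters, blue for control and red for cKO labels, with exact 95% Poisson intervals. Sema3c exceeds 100 CPM only in Adarb2 interneuron-like clusters, and Sema3e is low in the upper and middle layer clusters and higher in the layer 5 and layer 6 clusters.

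Between the regions, few of the genes differed in neurons. In excitatory neuron-like nuclei, 1 of 10 genes was higher in the lesion in both libraries, against 0.891% of 14696 genes. The count of lower genes was 1 of 10, against 18.2%. In neurons most UMIs were parenchymal, so genes that were high in the parenchyma reached the minimum more easily. The higher gene was Sema3e, at 96.3 (89 to 104) and 102 CPM (90.1 to 114) against 57.6 (55.3 to 60.1) and 51.7 CPM (49.4 to 54). The lower gene was Nrp2, at 19.7 (16.5 to 23.3) and 14.8 CPM (10.7 to 20.013) against 49 (46.8 to 51.2) and 51.5 CPM (49.3 to 53.9). Within layer 5 excitatory-like nuclei Sema3e was at 204 (169 to 245) and 349.7 CPM (287 to 421) in the lesion against 115 (104 to 128) and 95.8 CPM (83.1 to 109.9), over 42 and 23 lesional nuclei. In layer 6 excitatory-like nuclei the libraries went opposite ways, with 183 (160.0 to 208) and 86.4 CPM (65.3 to 112) in the lesion against 103 (95.1 to 111) and 124 CPM (115 to 133). The mix of layers also differed. The Agmat-led upper layer cluster held 116 and 40 lesional against 360 and 363 parenchymal nuclei, and the Krt80 cluster of layer 6 80 and 55 against 293 and 273. In the pooled class this mix cannot be told apart from a higher Sema3e level per nucleus. Nrp2 had lower values in the lesion in each of the 4 named excitatory types. It stood at 25.9 (19.6 to 33.6) and 23.7 CPM (13.3 to 39.1) against 51.1 (47.1 to 55.5) and 46.9 CPM (43.2 to 50.8) in upper layer excitatory-like nuclei. In layer 6 excitatory-like nuclei it was at 17.9 (11.4 to 26.9) and 10.8 CPM (4.34 to 22.2) against 68.8 (62.6 to 75.3) and 59.7 CPM (53.9 to 66). The Cplx3 and Ccn2 cluster, which had high Nrp2, gave only 10 and 1 of the 90 and 56 lesional layer 6 excitatory-like nuclei, and a difference in the mix of clusters cannot be told apart from a lower level per nucleus. In inhibitory neuron-like nuclei 0 of 9 genes were higher, against 1.76%, and 2 of 9 lower, against 11.8%. These were Nrp2, at 25.5 (17.3 to 36.2) and 24.3 CPM (14.4 to 38.5) against 53.3 (47.6 to 59.6) and 60.6 CPM (55 to 66.5), and Plxnd1, which had 2 and 3 UMIs in the lesion against 57 and 75 UMIs in the parenchyma. In middle layer excitatory-like nuclei Nrp1 was at 9.52 (4.92 to 16.6) and 8.59 CPM (2.79 to 20.048) in the lesion against 35.7 (32 to 39.8) and 35.4 CPM (31.7 to 39.4).

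The library labelled cKO was compared with the library labelled control within each lesional class that had enough nuclei, for genes with at least 50 UMIs over both. In fibroblast-like nuclei, the cells in which the Cre is driven, 0 of the 10 genes differed by 1.5-fold, against 6.12% of 14376 genes. The log2 ratios ran from -0.25 (-0.33 to -0.18) for Nrp2 to 0.24 (0.051 to 0.42) for Plxnd1, and the median of the 10 genes was 0.055 against 0.0038 over all genes tested. Sema3a, with 6508 and 6350 UMIs, had a log2 ratio of -0.081 (-0.13 to -0.031). Nrp1, with a log2 ratio of 0.23 (0.18 to 0.28), differed by mouse: it was at 377 and 565 CPM in the females and 459 and 417 CPM in the males. Within the late inner-like state Nrp1 was at 394 and 568 CPM and Nrp2 at 206 and 109 CPM.

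In astrocyte-like nuclei 1 of 9 genes differed, against 9.66% of 9617 genes. It was Nrp2, at 218 (199 to 238) and 125 CPM (112 to 139.9), a log2 ratio of -0.80 (-1.01 to -0.59). The fibroblast markers in these nuclei moved the same way, at a summed 942 and 372 CPM with all 8 detected in each, and their part in the Nrp2 value was not tested. Nrp2 was lower in both mice labelled cKO, at 223 and 146 CPM in the females and 215 and 101 CPM in the males. In endothelial-like nuclei 1 of 6 genes differed, against 16%. It was Sema3c with 51 and 61 UMIs, at a log2 ratio of 0.96 (0.40 to 1.52). By mouse it was at 223 and 557 CPM in the females and 188 and 268 CPM in the males, so the males alone were less than 1.5-fold apart. Myeloid-like nuclei had 1 of 8 genes apart, against 6.38%. It was Sema3d with 15 and 38 UMIs, at a log2 ratio of 0.73 (-0.14 to 1.73), whose interval held 0. The ratio turned to -0.11 when the 10 genes and their pathway were used for clustering. Plxna2 in myeloid-like nuclei was below the 1.5-fold line, at a log2 ratio of 0.47 (0.29 to 0.65), and differed by mouse, at 66.2 and 144 CPM in the females and 139 and 141 CPM in the males. Excitatory neuron-like nuclei had 2 of 9 genes apart, against 7.02%. These were Sema3c with 75 and 49 UMIs, at a log2 ratio of 0.62 (0.067 to 1.16), and Sema3d with 62 and 15 UMIs, at -0.78 (-1.74 to 0.014). In females alone the Sema3c ratio was 0.45, while Sema3c in males and Sema3d in either sex had too few UMIs to be tested. Oligodendrocyte-like and inhibitory neuron-like nuclei had 0 of 6 and 0 of 5 genes apart, against 11.1% and 9.76%. Classes with fewer nuclei are given as values only. Sema3d in oligodendrocyte precursor-like nuclei had a log2 ratio of -0.61 (-0.87 to -0.35), and Plxna2 in T cell-like nuclei -1.30 (-1.94 to -0.72), with 100 and 31 UMIs. Fibroblast markers in T cell-like nuclei differed in the same direction, at a summed 1361 and 770.2 CPM, and their part in this was not tested.

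**Figure D5:**
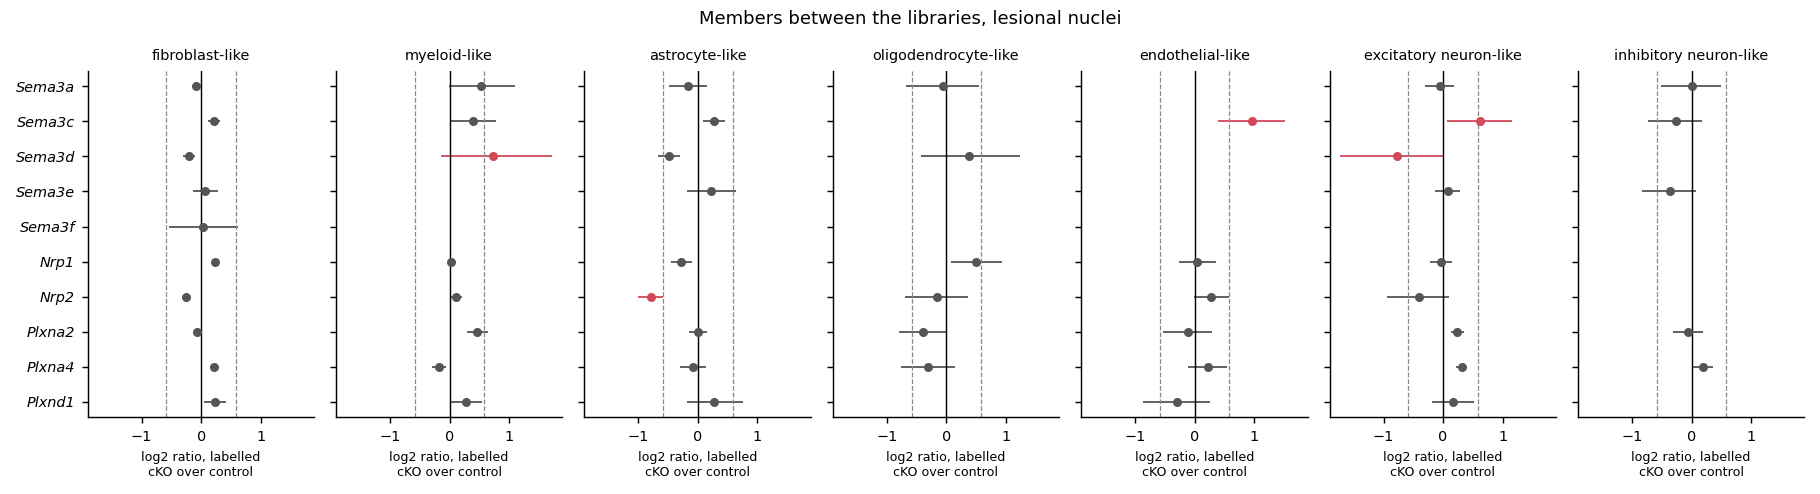
Log2 ratio of the library labelled cKO over the library labelled control for each gene with at least 50 UMIs, 1 panel per lesional class, with 95% counting intervals, dashed lines at 1.5-fold and red for ratios past them. No gene is past the lines in fibroblast-like nuclei. Nrp2 in astrocyte-like nuclei and Sema3c in endothelial-like and excitatory neuron-like nuclei are past them with intervals that leave out 0. Past the lines in these 3 classes are 1 of 9, 1 of 6 and 2 of 9 genes, against 9.66%, 16% and 7.02% of all genes.

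Other genes of the pathway were read in the same way. In fibroblast-like nuclei 0 of 5 other plexins, 0 of 21 intracellular partners and 0 of 11 other semaphorins were 1.5-fold apart between the libraries. Neither Sema3b nor Sema3g, the remaining class 3 ligands, had the UMIs to be tested. Of 5 coreceptors 2 were lower in the library labelled cKO, beside 6.12% of all genes apart in either direction. One was Kdr, a VEGF receptor that can join Nrp1, with 123 and 81 UMIs, log2 -0.65 (-1.07 to -0.23). The other was Cntn2, an axonal adhesion protein, with 34 and 22 UMIs, log2 -0.66 (-1.52 to 0.14). In myeloid-like nuclei 1 of 6 other semaphorins was lower, Sema4c, a transmembrane ligand of plexin B2, with 74 and 71 UMIs, log2 -0.64 (-1.13 to -0.15). Of all genes tested in this class, 6.38% were apart in either direction. None was apart among 3 other plexins, 4 coreceptors and 17 intracellular partners. Between the regions, in astrocyte-like nuclei 2 of 12 intracellular partners and 1 of 2 coreceptors were higher in the lesion, against 22.4% of all genes, and 1 of 12 intracellular partners and 1 of 5 other semaphorins were lower, against 9.01%. None of 3 other plexins was apart there. In myeloid-like nuclei 1 of 15 intracellular partners and 1 of 3 other plexins were higher, against 13.7%, and 3 of 15 partners and 1 of 2 coreceptors were lower, against 16%, with 0 of 5 other semaphorins apart. In excitatory neuron-like nuclei 0 genes of these lists were higher, against 0.891%, and 1 of 20 intracellular partners and 1 of 13 other semaphorins were lower, against 18.2%, with 0 of 5 other plexins and 0 of 4 coreceptors apart. In inhibitory neuron-like nuclei 1 of 11 other semaphorins was higher, against 1.76%, and 1 of 11 other semaphorins, 1 of 18 intracellular partners and 1 of 3 other plexins were lower, against 11.8%, with 0 of 4 coreceptors apart.

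For each ligand, the genes with the most similar pattern were taken over 23 groups of a class in a library and region with at least 50 nuclei, by Pearson correlation of log2(CPM + 1) among 13832 genes with at least 500 UMIs. The groups share libraries and depth, so the values are a description. For Sema3a they were Cxadr (0.902), Foxp2 (0.893) and Clmp (0.875), with the coefficient in brackets. For Sema3c they were Rgs12 (0.918), Mmp28 (0.863) and Mark4 (0.861), and for Sema3d Cyp2j6 (0.908), Utp14b (0.876) and Col11a1 (0.863). For Sema3e they were A330102I10Rik (0.902), Radil (0.885) and Mtmr7 (0.873), and for the sparse Sema3f Nxpe2 (0.857), Cyb561 (0.84) and Adgrl2 (0.817).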

How the data were processed

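Nuclei of photothrombotic lesions and parenchyma were measured in 1 gene expression library per genotype, each a pool of 1 male and 1 female mouse, with Chromium 3′ v3.1 chemistry. Per the labels, the authors ran Cell Ranger 9.0.0 on GRCm39, and they deposited 4 filtered matrices of whole-number UMI counts, not normalized, of each gene in each nucleus. Of 23489 barcodes, those in the lowest or highest 2.5% by UMIs or genes, or the highest 2.5% by mitochondrial share, were removed, which left 21743 nuclei. Leiden clustering (scanpy 1.11.5, leidenalg 0.10.2, Python 3.11.15, 3000 variable genes, 30 components, 20 neighbours, resolution 1.0) left out the 10 genes, their pathway and sex-linked genes. Fibroblast-like, myeloid-like (resolution 0.25) and neuronal nuclei (0.5) were clustered again with 2000 variable genes.

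A cluster took the name of the list with the highest mean log2 fold. It needed at least 3 raised markers with a UMI in at least 10% of nuclei and a score of at least 0.5, and clusters with over 20% of both-sex nuclei were called mixed. These limits were chosen once the clusters were known. Clusters whose second list reached 0.6 of the score of the first were split again for set pairs of classes. No cluster was named B cell-like or neural progenitor-like. A cluster of 35 nuclei took the ependymal name, with 6 of 6 markers raised. It was called mixed because 22.9% of its nuclei carried UMIs of both sexes. The 10 genes, the marker lists and the pathway lists were chosen with earlier results of these data known. The genes named in the text were the 10, the pathway genes 1.5-fold apart between the libraries in lesional fibroblast-like or myeloid-like nuclei with at least 50 UMIs (at most 5 per list), and the 3 genes most like each ligand among those with at least 500 UMIs.

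Scrublet was an alternative only: it marked 259 and 274 lesional and 2 and 3 parenchymal nuclei, so the 10% of highest score were left out in its place. UMIs were summed per class and library, and log2 ratios (0.5 added to each sum) have exact conditional binomial 95% intervals, with scipy 1.17.1. UMIs without replicate libraries give counting error only. Ratios were tested on simulated data. Sequences came from RefSeq tables of GRCm38.p6 (no entry for Sema3f and Plxna4) and were not placed on the GRCm39 of the counts.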

Additional observations from a re-analysis of the deposited data

Results flagged for a closer look

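Sema3a in striatal projection neuron-like nuclei went opposite ways between the regions in the 2 libraries. The log2 ratio of lesion over parenchyma was -0.83 (-2.14 to 0.089) under the control label and 1.76 (1.503 to 2.01) under the cKO label, and the difference was not tested. Lesional Sema3a was at 73.7 CPM (31.8 to 145) over 8 nuclei labelled control and at 502 CPM (442 to 568) over 47 nuclei labelled cKO, against 139 (121 to 158) and 149 CPM (131 to 167) in the parenchyma. These levels use the class, with 109 and 125 parenchymal nuclei. The values below use the names from the second clustering of neurons, which gave 12 and 47 lesional and 131 and 149 parenchymal nuclei. In the lesion labelled cKO, 42 of 47 nuclei had a Sema3a UMI, and the highest nucleus had 25. Nearly all of these nuclei were from the female mouse, with 219 UMIs in 41 nuclei (499 CPM, 435 to 569.6), and 1 UMI in 1 nucleus was from the male. Parenchymal nuclei of the same female mouse had 155 UMIs in 86 nuclei (128 CPM, 109 to 150.4). In the library labelled control the female mouse was at 186 CPM (85.2 to 354, 9 UMIs) in the lesion against 158 CPM (129 to 190) in the parenchyma. The male mouse was at 27.4 CPM (5.66 to 80.2, 3 UMIs) against 94.6 CPM (75.9 to 117). The mice labelled control thus went opposite ways, over few lesional UMIs. Of the 2 striatal clusters, the Adora2a-led cluster held 251 UMIs in 46 nuclei (504 CPM, 444 to 571) of the lesion labelled cKO and 260 UMIs in 106 nuclei (161 CPM, 142 to 182) of its parenchyma. The nuclei of 1 mouse decide the value of the lesion labelled cKO.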

How the results depend on the processing

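Recomputed under 14 other settings were the ratios and counts between libraries and between fibroblast states, the counts between regions and the ranking of classes. Levels by neuron cluster and myeloid state, region values of endothelial-like and fibroblast-like nuclei, other pathway genes, similar genes and striatal Sema3a were not recomputed. The settings were mice of each sex alone, nuclei with UMIs of both sexes left out, nuclei weighted alike and ratios centred on the median of all genes. Others were 1 added to each sum, no minimum or a minimum of 20 UMIs, the highest Scrublet scores left out and no filter on nuclei. Class clusters were also taken at resolution 0.25 or 0.5, and the 10 genes and their pathway were used for clustering. Fibroblast clusters at 0.5 were chosen after seeing the data. Some settings were applied to part of these results only. Of the recomputed values, 512 of 550 ratios between libraries and 354 of 579 ratios between fibroblast states stayed within counting error of the value given. Of 178 ratios between classes, 153 kept their sign and their side of the 1.5-fold line. Within 1.5 times of the value given were 167 of 195 counts. The others moved. Among these, 1 ratio between libraries, 2 between classes and 6 between fibroblast states had been at least 1.5-fold apart and changed sign. No paired analysis was possible because there was 1 library per genotype, and for the same reason no library could be left out in turn. A value could not be had where a gene fell under 50 UMIs, as for Sema3f in single mice.

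With females alone, counts between libraries were 2 (1 above) in myeloid-like, 2 (1) in endothelial-like and 0 (2) in excitatory neuron-like nuclei, and with males alone 2 (1) in astrocyte-like, 0 (1) in endothelial-like, 0 (2) in excitatory and 2 (0) in inhibitory neuron-like nuclei. Leaving out both-sex nuclei gave 0 in myeloid-like and 1 in excitatory neuron-like nuclei and 3 over the 7 classes, in place of 5. Weighting nuclei alike gave 1 in oligodendrocyte-like and 1 in excitatory neuron-like nuclei, Scrublet 0 in excitatory neuron-like nuclei and 3 over all, and no filter 1 in excitatory neuron-like nuclei. With no minimum of UMIs, counts were 2 in astrocyte-like, 1 in oligodendrocyte-like, 5 in endothelial-like, 2 in inhibitory neuron-like nuclei and 13 over all. Myeloid-like nuclei had 0 at class resolution 0.5 and with the 10 genes used for clustering, where the Sema3d ratio was -0.11.

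Between regions, males alone gave 5 in excitatory neuron-like (2 above), 3 in astrocyte-like (7) and 2 in myeloid-like nuclei (4), and no filter gave 1 in inhibitory neuron-like nuclei (2). The dural or dural border-like count of 5 was 3 in females and 3 with fibroblast clusters at 0.5, where Nrp2 weakened to -0.65 and -0.24 and log2 ratios turned to 0.53 and 0.52 for Sema3d, and in the library labelled control to -0.17 for Sema3f, 0.0047 for Plxna2 and -0.17 for Plxna4. With the 10 genes used for clustering that of Sema3f was -0.093 in the library labelled control. In the male mouse labelled cKO, endothelial-like nuclei were below the highest other class for Sema3c (-0.053) and Sema3f (-2.28). Fewer UMIs enter the single-mouse settings, and the cause of the other changes was not tested. Few UMIs limit Sema3f and, in lesional inhibitory neuron-like nuclei, Plxnd1, and few nuclei limit all parenchymal glia.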
